A study of Homo sapiens with 11 samples.

Results

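EEF1B2, EEF1D, EEF1G and EEF2 encode translation elongation factors other than eEF1A, and the RNA windows of these 4 genes that were enriched with RPS19 are described here. A window was taken when any of the gene names that the authors gave it was 1 of the 4. This selected 97 distinct windows of 122708 in the 3 lists of enriched windows, and the lists named 8697 genes in all. By list, the 4 genes held 16 of 15402 windows for wild-type RPS19 (WT), 70 of 86567 for the substitution R62W and 72 of 93331 for R101H.

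The windows come from eCLIP, in which RNA crosslinked to a protein is fragmented, precipitated with the protein and sequenced beside an input of matched fragment size. Crosslinked HEK293T cells, an established human embryonic kidney line, had been transfected with plasmids for V5-tagged RPS19, which belongs to the small ribosomal subunit. Precipitates with an antibody to V5 numbered 3 for overexpressed WT, 3 for overexpressed R62W and 2 for overexpressed R101H, and the 3 inputs came from untransfected cells. The labels do not say that the cells' own RPS19 was removed. Neither do they state whether replicates came from different cultures, so a p-value here reflects only how far these samples vary, possibly for technical reasons. R62W and R101H are substitutions of RPS19 known from Diamond-Blackfan anemia, and the comparisons address how each alters the RNA recovered with the protein. Enrichment is given below as the authors' log2 odds ratio of precipitate (IP) over input, averaged over the replicates in which the window passed. The values of the separate passing replicates follow in parentheses, in order of size because they carry no replicate number. A window outside a list has no value there, which is not a measured 0.

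During elongation, eEF1A carries aminoacyl-tRNA to the ribosome and eEF2, encoded by EEF2, moves tRNAs and mRNA forward by 1 codon after each peptide bond. EEF1B2 and EEF1D encode the beta and delta subunits of the eEF1B complex, which exchange GDP for GTP on eEF1A, and EEF1G encodes its gamma subunit, which holds the complex together. Most of these mRNAs begin with a C followed by pyrimidines, the terminal oligopyrimidine (TOP) motif that they share with ribosomal protein mRNAs and through which mTOR signalling sets their translation. EEF1D also has a longer product known as a heat shock transcription factor. Introns of EEF1B2 and EEF2 carry genes for small nucleolar RNAs (snoRNAs), which guide the chemical modification of ribosomal RNA.

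The starts of 3 of the transcripts are shown because the TOP motif is what these mRNAs are best known to share. The start of EEF1D is not printed. Each run holds 30 bases around the annotated start in RefSeq (GRCh38.p14), 5′ to 3′, with the longest stretch of C and T that begins within 25 bases of the start in capitals.
EEF1B2 (chr2:206159887-206159916, plus strand): cttcgggTCCTTTTTCCTCTCTTCagcgtg
EEF1G (chr11:62573874-62573903, minus strand): cccgggcggcttaCTTTgcggcagcgccga
EEF2 (chr19:3985447-3985476, minus strand): tgacgtcagcgTTCTCTTCCgccgtcgtcg
The pyrimidine stretch was 17 bases long in EEF1B2, 9 in EEF2 and 4 in EEF1G. A stretch at least as long, found by the same search, was present in 1.22%, 14.5% and 84.9% of 35116 RefSeq promoters, counted on the strand of the transcript. RefSeq gives EEF1B2 another start, further upstream, with a stretch of 5 bases (65.8% of promoters). No listed window lay in the 300 bases around any of these starts. The nearest was 1983 bases away in EEF1B2, 836 in EEF1G and 836 in EEF2. EEF1D differed, with windows centred 17 and 116 bases from its RefSeq 5′ end, described with that gene. These are descriptions of letters in the reference and do not show where transcription began in these cells.

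The 4 genes were represented very unevenly. EEF1D held 9 windows for WT, 51 for R62W and 60 for R101H, and EEF2 held 3, 14 and 9. EEF1B2 held 4, 4 and 2, and EEF1G had no window in WT and 1 each in R62W and R101H. Thus 3 of the 4 genes had a window in WT, where 38% of the genes named in any list had one, and all 4 had one in R62W and R101H, where 89.5% and 93.5% did. By number of windows, EEF1D ranked 346 among the 3307 listed genes of WT, 242 among 7780 for R62W and 188 among 8133 for R101H, with a median of 2, 5 and 6 windows per listed gene. Its number of windows was 5.67 times the WT number for R62W and 6.67 times for R101H, close to the 5.62 and 6.06 times found over the whole lists. For EEF2 the ratios were 4.67 and 3, and EEF1B2 had no more windows with the substitutions than with WT. With a highest q of 0.05 or less, the 4 genes together kept 2 of 16 windows for WT, 16 of 70 for R62W and 29 of 72 for R101H. How many windows of the whole lists pass this cut is not given here, so these counts have no background beside them. Each group has 1 list made from all of its replicates, so these counts have no replicate error and no test.

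**Figure D1:**
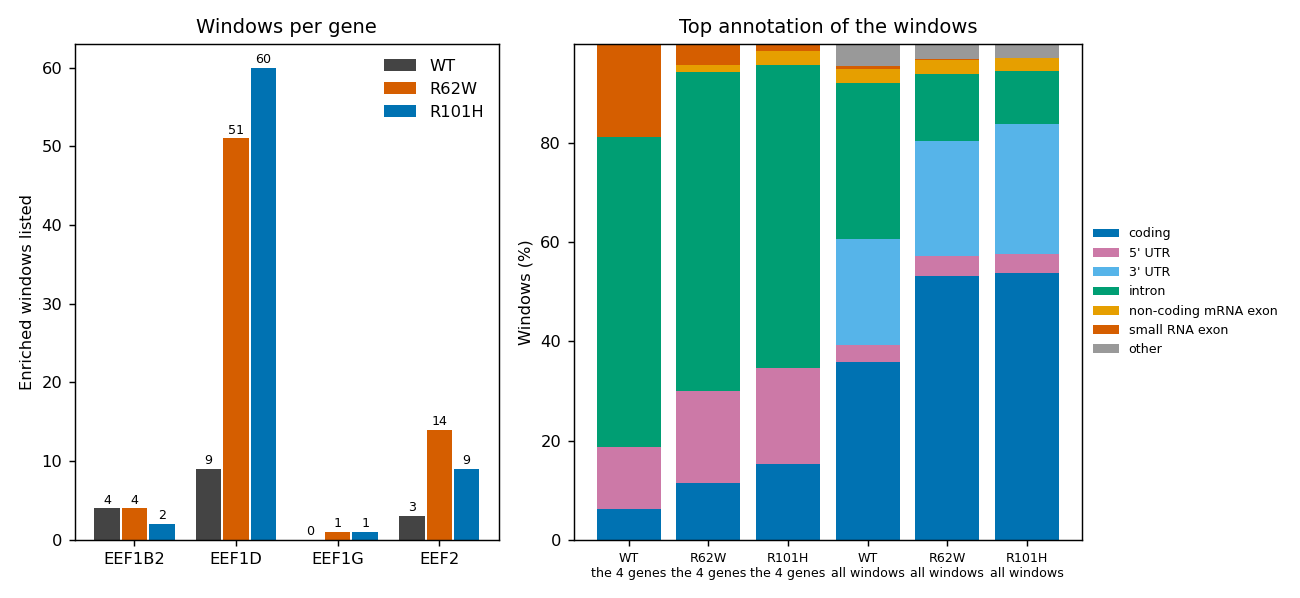
Left, number of enriched windows listed for each of the 4 genes in WT, R62W and R101H. Right, share of windows (%) by the authors' top annotation for the 4 genes and for all windows. EEF1D holds most windows in every group, and intron windows make up 62.5%, 64.3% and 61.1% of the 4 genes' windows against 31.4%, 13.5% and 10.7% of all windows.

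Enrichment over these genes was modest, and most of their windows, though not most of their reads in every gene, were intronic. In EEF2 of R101H, for example, 2 coding windows held 2494 IP counts and 6 intron windows 283. Their windows had a median log2 odds ratio of 1.58 for WT, 1.48 for R62W and 1.43 for R101H, below the medians of 2.03, 1.90 and 2.00 over all windows. Each median is over the windows of its own list, so the groups are not compared on the same windows. Ribosomal protein genes, which share the TOP motif, had medians of 1.67, 1.67 and 1.67 over 121, 493 and 368 windows. EEF1A1, the gene of the factor that the eEF1B complex serves, stood far higher, with medians of 8.06, 7.36 and 6.73 over 15, 17 and 15 windows. By gene, the medians in WT, R62W and R101H were 1.29, 1.52 and 1.02 for EEF1B2, 1.62, 1.37 and 1.45 for EEF1D, and 1.86, 1.91 and 1.40 for EEF2. Within a window, the replicates of the 4 genes had a median SD of 0.23, 0.30 and 0.26.

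Intron windows, those beside splice sites included, were 62.5% of the 4 genes' windows in WT (exact 95% interval 35.4 to 84.8), 64.3% in R62W (51.9 to 75.4) and 61.1% in R101H (48.9 to 72.4), against 31.4%, 13.5% and 10.7% of all windows. Coding windows were 6.25%, 11.4% and 15.3%, against 35.8%, 53.2% and 53.7%. The 5′ UTR held 12.5%, 18.6% and 19.4%, all of it in EEF1D, against 3.49%, 4.03% and 3.88%. No window of the 4 genes had 3′ UTR as its top annotation in any list, where 21.4%, 23.2% and 26.3% of all windows did. Some EEF1D coding windows near the 3′ end also carried 3′ UTR among their annotations. Even windows placed in an exon mostly coincided with an intron of another transcript. Together with the intron windows, 15 of 16, 67 of 70 and 67 of 72 windows had an intron among their annotations, or 93.8%, 95.7% and 93.1%. The same share was 41.2%, 23.2% and 19.9% over all windows and 63.6%, 73.6% and 71.2% over ribosomal protein genes. Only 1, 3 and 5 windows of the 4 genes were exonic in every annotated transcript. The intervals cover counting error only, and windows of a gene are not independent.

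EEF1B2 lies on chromosome 2, and every window listed for it fell on or next to a snoRNA in its introns. The first (206161899 to 206161957, GRCh38) shared 52 of its 59 bases with SNORD51, a box C/D snoRNA that guides ribose methylation. It had 1.54 with WT (1.06, 1.38 and 2.18) and 1.77 with R62W (1.17, 1.82 and 2.33), and was not listed in R101H. The replicates of WT and R62W overlapped there.

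The remaining EEF1B2 windows met SNORA41, a box H/ACA snoRNA of the kind that guides pseudouridylation. One lay in the 23 bases that end just before it (206162205 to 206162227) and had 1.23 with WT (0.82 and 1.63), 1.26 with R62W (0.71, 1.08 and 2.00) and 1.26 with R101H (1.04 and 1.47). The window over the 5′ part of SNORA41 (206162228 to 206162293) had the most reads of the gene, 479 IP counts against 270 input counts with WT, 572 against 399 with R62W and 406 against 253 with R101H. Its log2 odds ratio was low in all groups, namely 0.77 with WT (0.71 and 0.84), 0.63 with R62W (0.55, 0.63 and 0.72) and 0.78 with R101H (0.58 and 0.98), with overlapping replicates. The 3′ part (206162294 to 206162359) had 1.35 with WT (1.26 and 1.43) and 1.77 with R62W (1.29, 1.92 and 2.10) and was not listed in R101H. No coding or UTR window of EEF1B2 was listed in any group, and reads of the snoRNA cannot be told apart from those of the intron around it.

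EEF2 lies on chromosome 19, and its WT windows were all intronic, beside splice sites. The window near the 3′ end of the gene (3978173 to 3978272) had 1.76 with WT (1.72 and 1.80), 1.82 with R62W (1.30, 2.01 and 2.16) and 1.90 with R101H (1.32 and 2.47), so the WT values lay inside the range of both substitutions. The middle window (3980331 to 3980413) had 1.86 with WT (1.57, 1.75 and 2.24), 2.29 with R62W (1.88, 2.46 and 2.52) and 1.34 with R101H (1.18 and 1.50). R101H was lowest there, below every WT and R62W replicate. The third window (3981651 to 3981748) had 2.12 with WT (1.82 and 2.42), 2.23 with R62W (1.53 and 2.93) and 1.40 with R101H (both replicates at 1.40), again with R101H below all the others. Of all shared windows, 3.84% had R101H wholly below WT and 3.59% had R101H wholly below R62W.

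Outside these, EEF2 windows were listed for the substitutions alone, and most for 1 of them. Of 18 distinct windows, 3 were in all lists, 2 in both substitutions but not WT, 9 in R62W only and 4 in R101H only. One of the shared pair was the coding window 3983201 to 3983291, which is exonic in every annotated transcript. It had 0.96 with R62W (0.67, 1.08 and 1.13) and 1.20 with R101H (1.18 and 1.22), so the groups did not overlap. Of all windows shared by these groups, 17.9% had R101H wholly above R62W. The difference here was 0.24, against a median of 0.21 over all of them. This coding window rested on 1253 IP and 693 input counts in R62W and 1044 and 456 in R101H. The adjacent coding window (3983110 to 3983200), listed for R101H only, had 1450 IP and 541 input counts and a log2 odds ratio of 0.40. The intron windows had far fewer reads. The highest EEF2 value of any list, 3.02 with R62W (3984531 to 3984611), came from replicates at 1.83 and 4.21 and from 16 IP and 4 input counts in all. Beside SNORD37, a box C/D snoRNA in an EEF2 intron, windows that begin 1 and 68 bases from it were listed for R62W only, at 1.92 (1.66 and 2.19) and 1.98 (1.97 and 1.98), and no window in any list was named for SNORD37 itself.

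**Figure D2:**
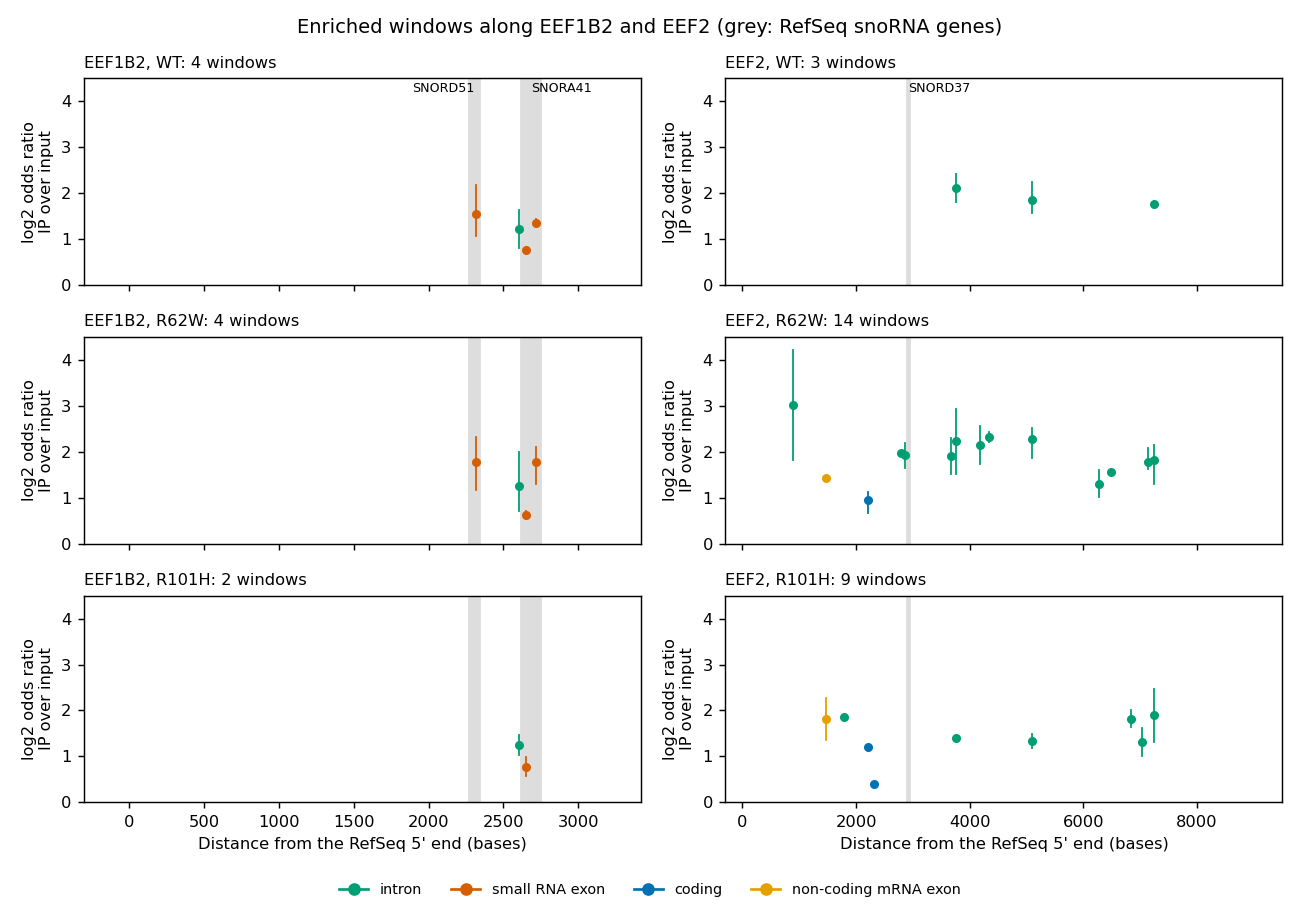
Log2 odds ratio of IP over input (mean as points, lowest to highest passing replicate as lines) against the distance of the window from the RefSeq 5′ end of the gene (bases), for EEF1B2 and EEF2 in WT, R62W and R101H. Grey bands mark RefSeq snoRNA genes; all 4, 4 and 2 EEF1B2 windows lie on or beside SNORD51 and SNORA41, whereas EEF2 windows spread over the gene.

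EEF1G, on chromosome 11, was almost absent from the lists. R62W had a window next to a 3′ splice site (62559838 to 62559937) at 2.17 (1.89, 1.94 and 2.68), from 28 IP and 6 input counts. R101H had another, in an exon of a non-coding transcript (62572940 to 62573038), at 1.66 (1.44 and 1.88), from 21 IP and 8 input counts. Neither was listed in the other groups, so no comparison can be made for EEF1G, and no coding or UTR window of it was listed.

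EEF1D, on chromosome 8, had windows from its first exons to its stop codon. It was divided, after its values were seen, into the stretch 5′ of the listed window annotated with a start codon, that start codon window itself, an intron stretch 3′ of it, and the coding exons near the 3′ end. The intron stretch (143581928 to 143585818) had the highest medians of the gene and a similar one in each group, with a median of 1.82 for the 4 WT windows, 1.87 for the 15 of R62W and 1.83 for the 14 of R101H. Its highest WT window, also the highest of the gene in that group (143585120 to 143585219), had 2.21 with WT (1.71, 2.10 and 2.81), 2.29 with R62W (1.70, 2.06 and 3.11) and 2.36 with R101H (1.61 and 3.12), with replicates that overlapped throughout. Also listed in all 3 groups were 143584522 to 143584620, at 1.89, 1.87 and 2.01, and 143585719 to 143585818, at 1.74, 1.50 and 1.78. The median input count behind a window of this stretch was 14, 11 and 10.5.

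Most of the windows that EEF1D had only with the substitutions lay 5′ of the start codon window. There were 4 in WT, 33 in R62W and 40 in R101H, with median log2 odds ratios of 1.52, 1.14 and 1.23. They spread over the annotated 5′ UTR, introns and coding windows (4 in R62W and 3 in R101H), so part of the stretch is coding in some annotated transcripts. The WT list held only windows of at least 1.34 in this stretch, whereas those of R62W and R101H reached down to 0.90 and 0.67. The windows nearest the 5′ end of the gene were 143597349 to 143597447, listed for R101H only at 0.67 (0.56 and 0.79), and 143597250 to 143597348, at 1.04 with R62W (0.92 and 1.16) and 0.92 with R101H (0.90 and 0.93). A window listed in all 3 groups (143595019 to 143595112, intron) had 1.62 with WT (1.61 and 1.62), 1.70 with R62W (1.50, 1.56 and 2.04) and 1.89 with R101H (1.41 and 2.37), with overlapping replicates. The highest EEF1D window of R62W was here (143595398 to 143595492), at 2.57 (its lower replicate at 2.13) against 2.01 with WT (1.39 and 2.62), with no value in R101H. For R101H the highest was in the intron stretch (143584322 to 143584421), at 2.57 (2.31 and 2.84) against 2.05 with R62W (1.43 and 2.66), and it was not listed in WT. The start codon window (143586746 to 143586845) was listed for the substitutions alone, at 0.90 in R62W and 1.19 in R101H.

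A coding window near the 3′ end of EEF1D (143580012 to 143580108) had its lowest mean in WT and its highest in R101H. It is exonic in every annotated transcript and had 0.82 with WT (0.69 and 0.96), 1.32 with R62W (1.21, 1.32 and 1.44) and 1.60 with R101H (1.43 and 1.77). Every R62W and R101H value lay above the 2 passing WT values, while R62W and R101H overlapped. Of all shared windows, 24.1% had every R62W value above every WT value, and 48.4% had every R101H value above. Centred on the median of all windows, its differences from WT were 0.23 for R62W and 0.17 for R101H. The window was also among the deeper ones, with 242 IP and 125 input counts for WT, 535 and 193 for R62W and 464 and 126 for R101H. The coding exons of this end had 1 window in WT, 2 in R62W and 5 in R101H.

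**Figure D3:**
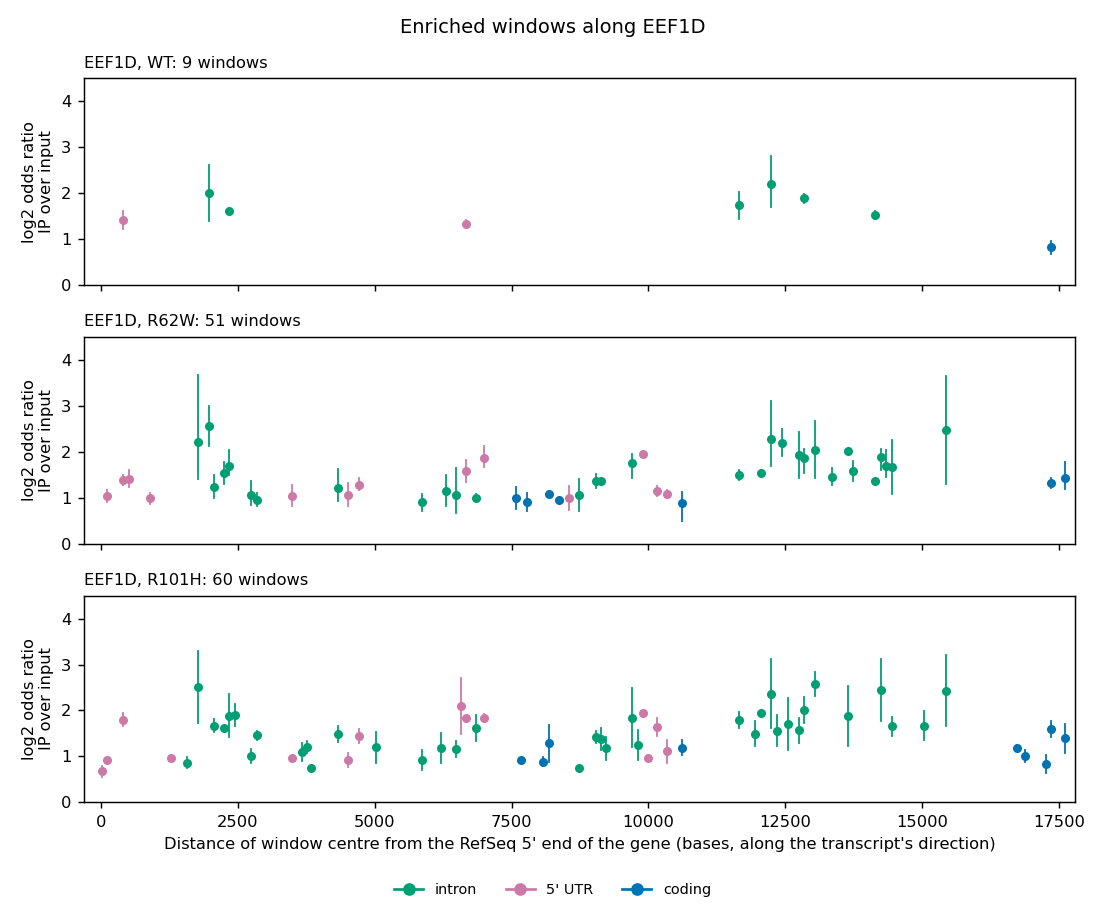
Log2 odds ratio of IP over input (mean as points, lowest to highest passing replicate as lines) for each EEF1D window against the distance of its centre from the RefSeq 5′ end of the gene (bases), coloured by annotation. The 9 WT windows recur among the 51 of R62W, and the windows added 5′ of the start codon window in R62W and R101H are mostly lower than those of the intron stretch, which has medians of 1.82, 1.87 and 1.83.

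Every window of the 4 genes in WT was also listed in R62W, and 12 of the 16 in R101H. Over the whole lists, 79.6% of WT windows were also in R62W and 72% in R101H. R62W and R101H shared 45 windows of the 4 genes, which is 64.3% of those in R62W and 62.5% of those in R101H. Over the whole lists they shared 59874 windows, of 86567 in R62W (69.2%) and of 93331 in R101H. All 3 lists held 12 windows, 2 of EEF1B2, 7 of EEF1D and 3 of EEF2, and 33 were in both substitutions but not in WT. The 4 WT windows missing from R101H were 2 in EEF1B2 and 2 in EEF1D.

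Over the windows shared by R62W and WT, no window of the 4 genes passed the test. Of 16 windows, 11 had a higher mean in R62W (68.8%, against 72.4% of all shared windows) and 5 a lower one, with a median difference (R62W minus WT) of 0.08 on the log2 scale, against 0.26 over all 12263 shared windows. Centred on the median of all windows, it was -0.18, and 4 of the 16 were higher. The SNORD51 window of EEF1B2 differed by 0.23 (SE 0.42) and the middle EEF2 window by 0.43 (SE 0.31). The coding window of EEF1D differed by 0.50 (SE 0.29), with an adjusted p of 0.612 in limma. Limma with Benjamini-Hochberg adjustment called 0% of all shared windows and 0 of the 16, none of which had an unadjusted p under 0.05, where 1252 of all windows did. Among windows enriched in every replicate it called 0.0374% of all and 0 of 3. The R62W values lay wholly above those of WT in 1 of 16 windows, the EEF1D coding window, where 24.1% of all windows did so, and wholly below in 1, an EEF1D intron window (143583225 to 143583324), where 4.24% did.

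R101H was compared with the same WT samples, so the 2 comparisons with WT are not independent. Over the 12 shared windows, 10 had a higher mean in R101H (83.3%), as did 82.5% of all 11082, and the median difference (R101H minus WT) was 0.13, against 0.60 over all. Centred on the median of all windows, 1 of the 12 was higher, the coding window of EEF1D, and the median was -0.47. By gene, means were higher in R101H in 7 of 7 EEF1D windows, with a median difference of 0.27, and lower in 2 of 3 EEF2 windows. The EEF1D coding window differed by 0.77 (SE 0.41, adjusted p in limma 0.321), and its 5′ UTR windows 143590703 to 143590797 and 143596953 to 143597051 by 0.50 (SE 0.39) and 0.38 (SE 0.41). The EEF2 windows 3980331 to 3980413 and 3981651 to 3981748 differed by -0.52 (SE 0.38, adjusted p in limma 0.444) and -0.72 (SE 0.43, adjusted p 0.364). Limma called 0% of all shared windows and 0 of the 12, with an unadjusted p under 0.05 in 0 of the 12 and in 2365 of all windows. With windows enriched in every replicate it called 18.2% of all and 0 of 2. R101H values lay wholly above those of WT in 3 of 12 windows, the 3 EEF1D windows just given, against 48.4% of all windows. They lay wholly below in 2, both EEF2 introns, against 3.84%. Leaving out the highest replicate value of each window turned the median difference to -0.10, and in the 2 windows enriched in every replicate it was -0.18.

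**Figure D4:**
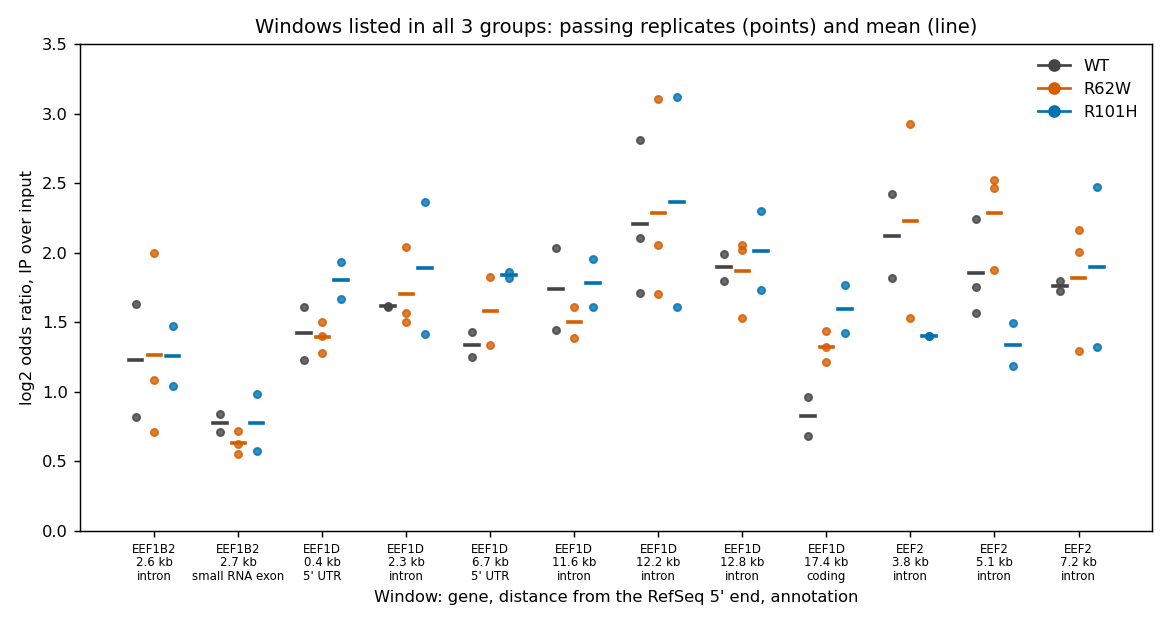
Log2 odds ratio of IP over input in each passing replicate (points) and their mean (lines) for the 12 windows listed in all 3 groups, labelled by gene, distance from the RefSeq 5′ end (kb) and annotation. In the EEF1D coding window WT lies lowest, from 0.69 to 0.96, and in the EEF2 intron windows at 3.8 and 5.1 kb R101H lies lowest, at 1.40 and from 1.18 to 1.50.

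Between the substitutions, no shared window of the 4 genes passed the test, and the lowest differences were in EEF2. The mean was higher in R101H in 29 of 45 windows (64.4%, against 71.8% of all shared windows) and lower in 16, with a median difference (R101H minus R62W) of 0.08, against 0.21 over all 59874, or -0.13 with 17 of the 45 higher once centred on the median of all. The value furthest below 0 was -0.95 (SE 0.36, 95% interval -1.81 to -0.09) in the middle EEF2 window, where limma gave an unadjusted p of 0.0355 and an adjusted p of 0.9997. It was the only window of the 45 with an unadjusted p under 0.05, where 1076 of all windows had one. Pooled IP counts there were 103 in R62W over 3 libraries and 39 in R101H over 2. Fisher's exact test against the other windows gave an adjusted p of 0.000838, which compares pooled reads and leaves out the spread between replicates. Among windows enriched in every replicate, that test called 1 of 22 of the 4 genes and 929 of 34309 of all. Limma called 0% of all shared windows and, among those enriched in every replicate, also 0%. R101H values lay wholly above those of R62W in 8 of 45 windows, 7 of them in EEF1D, against 17.9% of all windows, and wholly below in 2, both in EEF2, against 3.59%.

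Genes with the most similar pattern were found from the median log2 odds ratio and the log2 number of windows in each list. For EEF1D, among 3222 genes present in all 3 lists, they were SON, LARP1 and GTF3C1, at distances of 0.37, 0.38 and 0.43. SON, for example, had 10, 54 and 58 windows with medians of 1.59, 1.61 and 1.67, and LARP1, which encodes a protein known to bind TOP mRNAs, had 9, 59 and 66 with medians of 1.34, 1.40 and 1.53. EEF1B2 was nearest to B2M, RTCB and ANXA2 (0.62, 0.82 and 0.93) and EEF2 to EBP, TMEM115 and SPC24 (0.47, 0.53 and 0.58). For EEF1G, compared over R62W and R101H alone, CEP152, PRKAB1 and ANK2 were nearest, with 1 window in each list like EEF1G itself.

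Other genes of translation elongation and neighbouring steps were listed about as often as genes in general. These 35 genes encode other elongation factors, their mitochondrial counterparts, enzymes that modify them, release and ribosome rescue factors, and a tRNA synthetase of the eEF1B complex. Of the 28 that had a window in any list, 11 had one with WT (39.3%), 24 with R62W (85.7%) and 26 with R101H (92.9%), against 38%, 89.5% and 93.5% of all genes listed. EIF5A, whose hypusine-bearing product helps the ribosome through difficult peptide bonds, had 8, 30 and 32 windows with medians of 1.20, 1.81 and 1.94. GTPBP1, a GTPase related to the elongation factors, had 2, 25 and 27 windows with medians of 1.62, 1.58 and 1.46. TUFM, the mitochondrial counterpart of eEF1A, had 2, 9 and 13 with medians of 0.98, 1.09 and 1.07, and VARS1, a valyl-tRNA synthetase that associates with the eEF1B complex, had 1, 10 and 13 with medians of 1.14, 1.52 and 1.59. Of the list's windows shared by R62W and WT, R101H and WT, and R101H and R62W, limma called 0 of 32, 0 of 33 and 0 of 123. Where every replicate was enriched, 2 of 15 windows were called lower in R101H than in WT by limma, which called 18.2% of all such windows. Both were in EEF1A1, as were 14 of the 15 tested.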

How the data were processed

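Reads were processed with fastp and STAR on GRCh38, per the submitters' processing notes; neither versions nor the window caller is stated (not given in the sources used here). For each IP group, the authors deposited 1 list of enriched windows, made from all replicates. Per the file headers, the lists give IP and input counts pooled over replicates, log2 odds ratios (lowest, mean and highest), p-values and q-values, the fraction of G and C, and another column, the number of passing replicates. All listed windows had their highest q below 0.2 and 2 or more passing replicates. How the odds ratio was scaled is not stated. The log2 odds ratio minus the log2 ratio of pooled counts had a median of 0.53, 0.53 and 0.37 in EEF1B2 (WT, R62W, R101H). In EEF1D the median was -0.13, -0.27 and -0.33. Over 14882, 85707 and 92273 windows of the whole lists it was -0.09, 0.06 and -0.04. No library total is given. The 4 genes' windows had median pooled IP counts of 73.5, 81 and 89 and input counts of 21.5, 24.5 and 23, against 49, 47 and 48 and 11, 12 and 11 over all windows. The sources used here do not state which inputs went into which list. Of the 16 windows shared by WT and R62W, 8 passed in the same number of replicates, and 7 of these had identical input counts. For R101H and WT, 0 of the 10 windows that passed in the same number of replicates had identical input counts. For R101H and R62W it was 10 of 23.

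Positions are 1-based. With 3 passing replicates the lowest, mean and highest values fix the remaining one. Windows listed in both groups were tested over the whole table with lmFit and eBayes of limma 3.58.1 in R 4.3.3. Failing replicates were left out, and Benjamini-Hochberg adjustment was used at 0.05. A run on simulated data used a shift far larger than any difference in windows of the 4 genes. That run does not show whether differences of their size would be called. Pooled counts have no replicates, so no count model was fitted. Shares carry exact Clopper-Pearson 95% intervals. Alternatives were a highest q of at most 0.05, windows enriched in every replicate, windows naming 1 gene, the lowest or highest replicate, pooled count ratios with 1 added, centring, leaving out a replicate value and Fisher's exact test. Named windows are those in all 3 lists, the highest of each gene per list, and examples chosen after their values were seen. The nearest genes are the 3 with the smallest Euclidean distance among genes listed in the same groups. The members and lists were chosen with earlier results of these data known. Tables of repeat elements were not used here, and no genome was used, so sequences come only from RefSeq promoters.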

Additional observations from a re-analysis of the deposited data

How the results depend on the processing

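Under the alternatives, 59 of 76 values kept their direction and side of the threshold or stayed close, as did 60 of 96 values for single genes. Both counts include values that could not change. R101H had 2 samples and listing needed 2 or more passing replicates, so requiring every replicate left its own list as it was. Where the highest q had to be 0.05 or less, the 4 genes kept 2 of 16 windows for WT, 16 of 70 for R62W and 29 of 72 for R101H, with no count over the whole lists to set beside them. The WT median log2 odds ratio was then 1.33, coding windows were 0% in WT, introns were 50% in R62W, and no window was left to compare R62W with WT. With enrichment in every replicate required, 3 WT windows (18.8%, against 22.8% of all) and 29 R62W windows (41.4%, against 44.5%) were left. The WT median was then 1.86 with 0% coding, and the median difference of R101H minus WT was -0.18 over 2 windows. The log2 ratio of pooled counts reversed the order of the groups. By that measure R101H had the highest median (1.87), R62W came next (1.76) and WT was lowest (1.55). With the odds ratio WT had been highest (1.58), followed by R62W (1.48) and R101H (1.43). These medians cover different windows (16, 70 and 72), so neither order compares the groups on the same windows. On shared windows, before centring, the mean was higher in R62W than in WT in 11 of 16 and lower in 5. For R101H and WT, it was higher in R101H in 10 of 12 and lower in 2. Centring on the median of all windows turned the differences to -0.18 (R62W minus WT), -0.47 (R101H minus WT) and -0.13 (R101H minus R62W). Leaving out 1 replicate value per window gave 0.03 to 0.23, -0.10 to 0.32 and 0.04 to 0.23. Fisher's exact test called 1 of 22 windows for R101H minus R62W, where it called 929 of 34309 over all windows enriched in every replicate. The centred values follow from the shift over all windows, the cause of the others was not tested, and low input counts limit single windows. No paired analysis was possible because the deposited values carry no replicate number.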
